A study of Mus musculus with 12 samples.

Results

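The imprinted Dlk1-Dio3 region of mouse chromosome 12 carries one of the longest runs of miRNA genes in the mouse genome, and its mature miRNAs were examined here in macrophages stimulated with lipopolysaccharide (LPS). Members were chosen by name: every mouse probe whose name equals 1 of 43 miRNA names of the region, alone or with an arm suffix. All 43 names were found, giving 52 probes of the 566 mouse miRNA probes and the 626 probes of the panel. miR-376a, which lies in the same region, was left out by the name rule and appears below only as a neighbour. The measured signal was not used to choose the members, although they were proposed with earlier results of these data known.

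Mature miRNAs were counted with a NanoString panel, a hybridization assay in which each target is counted directly through a barcoded probe. The cells were IMM, immortalized mouse macrophages kept in culture. They received LPS, a component of the Gram-negative bacterial outer membrane, at 100 ng/mL for 30, 60 or 120 min, and the 0 min samples served as control. The labels give 3 biological replicates for each of 4 time points, so 12 samples in all, and every sample came from the same kind of cells and growth medium. The labels name no genotype, and a permanent line stands for primary macrophages only in part.

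The region is expressed according to parental origin. The protein-coding genes Dlk1, Rtl1 and Dio3 are read from the paternal copy, whereas the maternal copy gives long noncoding RNAs (Meg3, the Rtl1 antisense transcript, Rian and Mirg) that host the miRNAs. The miRNAs are known chiefly from embryo, placenta and brain. Several of those antisense to Rtl1, among them miR-127, miR-136, miR-431, miR-433 and miR-434, pair perfectly with the Rtl1 mRNA.

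All 52 members matched miRNA genes of RefSeq (GRCm38.p6), 18 by the exact name, 32 through the arms of the name and 2 through the name with the letter a added. The 43 genes lay on the plus strand of chromosome 12, and their mature sequences spanned chr12:109580243-109743784, or 163.5 kb. The sequences shown are those of the miRNAs on which the results turn, with the seed (bases 2 to 8 from the 5′ end) in capitals. The file names the probes miR-136, miR-539, miR-329 and miR-495 without an arm, so both arms of miR-136 are given. For miR-539, miR-329 and miR-495 1 arm is shown, without knowing which arm the probe reads.
miR-136-5p: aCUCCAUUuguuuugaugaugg
miR-136-3p: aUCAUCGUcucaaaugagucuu
miR-539-5p: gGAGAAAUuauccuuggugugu
miR-329-3p: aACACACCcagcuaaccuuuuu
miR-495-3p: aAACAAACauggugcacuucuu
miR-376a-3p: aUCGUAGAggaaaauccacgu
miR-376b-3p: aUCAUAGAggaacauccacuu
miR-136-5p maps to chr12:109595331-109595352, in the stretch antisense to Rtl1. miR-329-3p (chr12:109713541-109713562), miR-495-3p (chr12:109718795-109718816) and miR-539-5p (chr12:109728136-109728157) lie on the Mirg side, 132.8 kb from miR-136 in the case of miR-539. The 82 mature RefSeq sequences of the members hold 79 distinct seeds. Only 3 seeds were shared by a pair of members (miR-379-3p with miR-411-3p, miR-410-5p with miR-494-5p, and miR-376b-5p with miR-376c-5p), and neither arm of miR-136 nor miR-539-5p shared a seed with another member. The neighbour miR-376a-3p and the member miR-376b-3p, both of 21 bases, differ at 3 positions counted from the 5′ end (G4A, A13C and G20U, with the base of miR-376a first). The G4A difference falls in the seed.

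The deposited values are called signal here. Within a sample each value above 20, checked up to 2000, was a whole multiple of 1 step, so it could be read back as a count. Lower entries had been set to a floor of 20. A floored entry was taken to stand for less than 20 counts or less than a signal of 20, whichever is the higher signal. Counts above the floor summed to between 138655 (0 min replicate 1) and 365403 (120 min replicate 1) over all probes. The step of 0 min replicate 1, 2.26, was the largest of the 12 (range 0.748 to 2.26). A floored entry there can stand for a signal of up to 45.3, against 20 to 26.3 in the other samples. Of 7 miRNAs listed as myeloid, 5 were above the detection limit defined below, among them miR-142-3p (mean signal 8873) and miR-146a (mean 3684), whereas miR-155, also listed, was at the floor in all 12 samples. Of 9 neural miRNAs, 1 was above that limit (miR-128, mean 33.8) and 6 were at the floor in all samples. Of 7 probes listed as mesenchymal or fibroblast, 3 were above it: miR-199a-3p (mean 561), miR-199a-5p (mean 118) and miR-100 (mean 94.1). Another 3 of the 7 were at the floor in all samples. Of 2 endothelial probes, miR-126-3p was above the limit (mean 169.8) and miR-126-5p was not (mean 21.3). Of 10 epithelial probes 3 passed narrowly (means 30.6 to 31.2) and 3 were at the floor in all samples. No muscle, embryonic stem cell or erythroid probe passed. The part of such cells in the results was not tested.

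Most of the cluster was at the floor. The number of members at the floor in all 12 samples was 31 of 52 (59.6%), against 263 of 566 mouse probes (46.5%). Of the 624 member entries (52 probes in 12 samples) 79 were above the floor, or 12.7%, against 37.4% of the entries of the other mouse probes. A single member, miR-136, was above the floor in every sample. Negative controls, probes with no target in the sample, give the background: passed through the same step and floor, 17 of their 96 entries (17.7%) would have been listed above 20, all of them from 2 of the 8 controls. Of the 79 member entries above the floor, 31 exceeded the highest negative control of their sample, and 12 of those 31 belonged to miR-136.

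**Figure D1:**
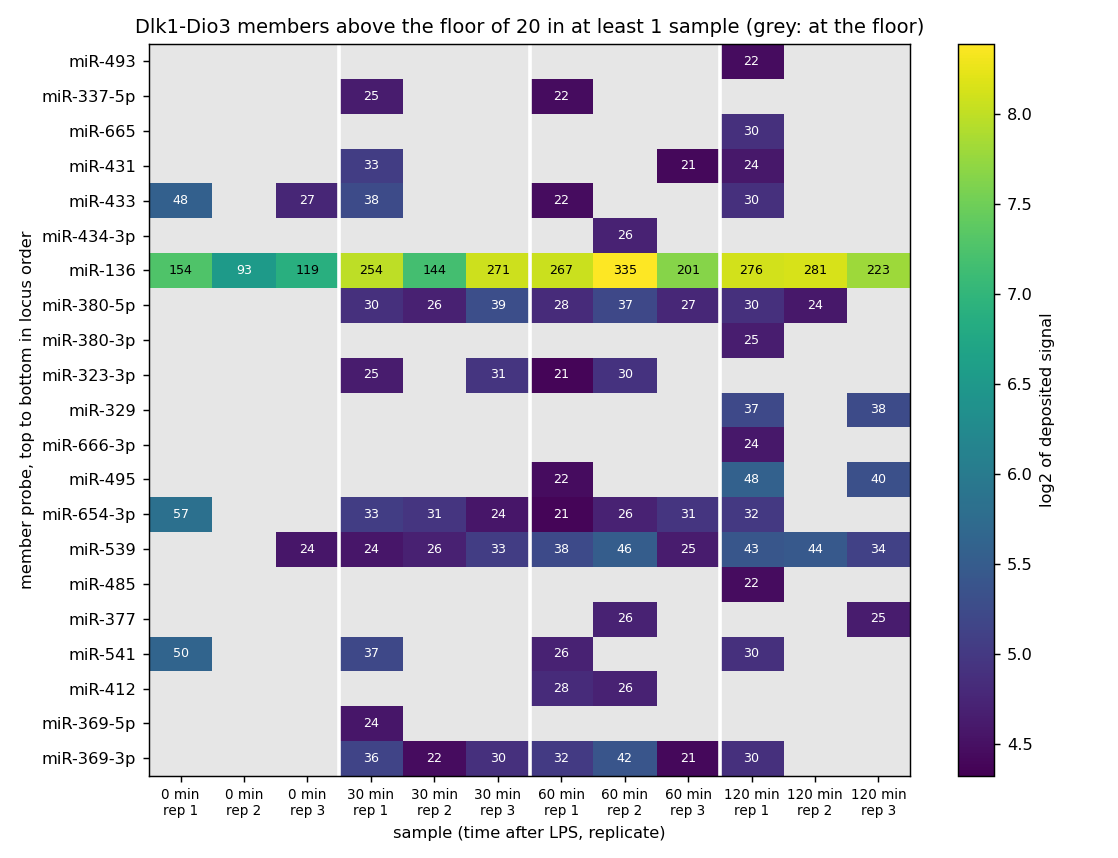
Deposited signal of the 21 members above the floor in at least 1 sample, in locus order from top to bottom, for the 12 samples in order of time after LPS. Colour gives the log2 of the signal and the printed number the signal; grey entries are at the floor of 20. miR-136 is filled in all 12 columns at 93 to 335, and no other entry exceeds 57.

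Members at the floor in all samples came from every stretch of the locus. In the stretch upstream of and antisense to Rtl1, 5 of 12 probes were at the floor throughout (miR-127, miR-337-3p, miR-434-5p, miR-540-3p and miR-540-5p). miR-127, one of the 5, is transcribed from the same antisense transcript as miR-136. The 1 probe on the Rian side, miR-370, was also at the floor in all samples. On the Mirg side 25 of 39 probes stayed there: miR-134, which limits dendritic spine size in neurons, and miR-154, miR-299, miR-300, miR-323-5p, miR-376b, miR-376c, miR-379, miR-381, miR-382, miR-409-3p, miR-409-5p, miR-410, miR-411, miR-487b, miR-494, miR-496, miR-543, miR-544, miR-654-5p, miR-666-5p, miR-667, miR-668, miR-679 and miR-758. At these depths a floored entry means that fewer than 20 to 26.7 counts were recorded, depending on the sample, and not that the miRNA was absent.

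More members stood above the floor in stimulated cells, as did more probes of the whole panel. The count of members above the floor was 4, 1 and 3 at 0 min, 11, 5 and 6 at 30 min, 11, 9 and 6 at 60 min, and 15, 3 and 5 at 120 min. The corresponding counts over the 566 mouse probes were 148 to 170 at 0 min, 191 to 208 at 30 min, 191 to 228 at 60 min and 191 to 267 at 120 min. All 30 min and 60 min samples lay above the 0 min samples in both counts, while for the members the 120 min samples overlapped the 0 min range. The highest value at 120 min, 15, came from the deepest library. The other libraries of that time point had 3 and 5. Measured against the highest negative control of each sample, the shares of member entries were 2.56%, 5.77%, 3.85% and 7.69% at 0, 30, 60 and 120 min. Over all mouse probes they were 23.0%, 26.6%, 26.5% and 33.1%. Whether depth sets the number of members seen was not tested.

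**Figure D2:**
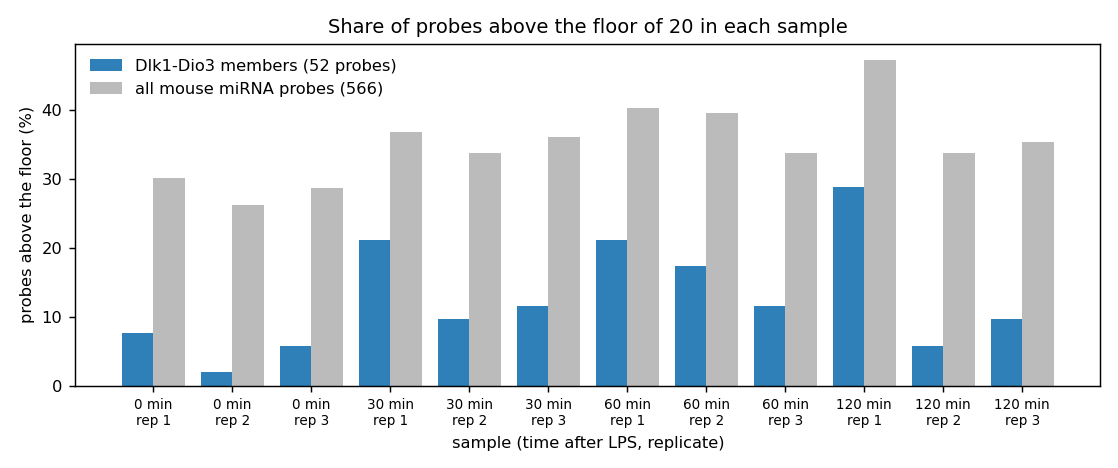
Share of probes above the floor of 20 in each of the 12 samples, for the 52 Dlk1-Dio3 members (blue) and all 566 mouse miRNA probes (grey). The members' share lies below that of all mouse probes in every sample, with ranges of 1.92% to 28.8% for members and 26.1% to 47.2% for all.

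Tests between time points were made with limma on log2(signal + 1), for mouse miRNAs with an average signal above 30.5. That detection limit lies 2 SD above the average of the negative controls as deposited, which are counts without the step. It was passed by 166 of 566 mouse probes (29.3%) and by 2 of 52 members (3.85%), miR-136 and miR-539, so the other 50 members were not tested in this fit. miR-539 passed narrowly (mean 31.3), through its values at 60 and 120 min. With the controls put on the signal scale the limit is 38.4, which 139 mouse probes and, of the members, miR-136 alone passed. miR-136 was again called at 60 min (limma adjusted p = 0.0311) and 120 min (adjusted p = 0.0217) in that fit. The share called among the 139 is not given here. In the fit of the 166, 10.8% and 21.7% were called higher at these times. Adjusted p-values are Benjamini-Hochberg values over all 166 miRNAs, and a call is an adjusted p under 0.05. The fitted spread was shared by all miRNAs, so every log2 change on the deposited scale has an SE of 0.38.

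miR-136, which in mouse is processed from the Rtl1 antisense transcript, was the single member above the floor in all samples. Its signal was 153.99, 92.6 and 119 at 0 min and 254, 144.12 and 271 at 30 min. At 60 min it was 267, 335 and 201, and at 120 min 276, 281 and 223.02. All 60 min and 120 min samples were above all 0 min samples, while 1 of the 3 samples at 30 min, at 144.12, lay within the 0 min range. These signals rest on 68, 107 and 140 counts at 0 min, and on 227 to 353 counts at 60 and 120 min. The exact Poisson interval of the lowest count, 68, was 52.8 to 86.2 and that of the highest, 353, was 317 to 392 (95%, counting error only).

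miR-136 was higher at 60 and 120 min than at 0 min on the deposited scale. In RNA from bulk culture, more cells expressing a miRNA and more of it per cell cannot be told apart. miR-136 averaged 268 ± 67.3 at 60 min and 122 ± 30.8 at 0 min (SD, n = 3 each), a log2 change of 1.13, or 2.19-fold, with a limma adjusted p of 0.0339. At 120 min it averaged 260.2 ± 32.3, against the same 122 ± 30.8 at 0 min, a log2 change of 1.11, or 2.16-fold, with a limma adjusted p of 0.0203. At 30 min it averaged 222.9 ± 68.8, and the log2 change of 0.84 did not pass (limma adjusted p = 0.343). The exact two-sided permutation test gave 0.1 at 60 min and 0.1 at 120 min, the smallest p that 3 samples against 3 allow, and 0.2 at 30 min. Between neighbouring times after LPS the log2 changes were 0.29 for 60 min against 30 min (adjusted p = 0.998) and -0.02 for 120 min against 60 min (adjusted p = 0.999).

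Calls were common among the miRNAs tested. At 60 min against 0 min 1 of the 2 tested members was higher, where 10.8% of the 166 miRNAs were called higher. At 120 min 1 of 2 was higher, beside 21.7% of the 166. At 30 min 0 of 2 were called, beside 3.01% of the 166, and 1 of 2 (miR-136) had an unadjusted p under 0.05, as did 12.7% of the 166. None of the 2 was called for 60 min against 30 min (0.602% of the 166 called higher) or for 120 min against 60 min (0% called), and neither had an unadjusted p under 0.05 there, where 5 and 15 of the 166 did. No miRNA was called lower in any of these 5 comparisons on the deposited scale. Both members had groups that did not overlap with 0 min at 60 min and at 120 min, as did 18.1% and 34.9% of the 166 miRNAs, and 0 of 2 did so at 30 min, where 15.7% of the 166 did. For miR-539 the floor leaves this separation undecided. Of its 3 entries at 0 min 2 are floored, and 1 of them can stand for up to 45.3. That lies above all its values at 120 min and all but the highest at 60 min.

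The whole panel was shifted upward on the deposited scale, with a median log2 change of the 166 miRNAs of 0.28 at 30 min, 0.43 at 60 min and 0.57 at 120 min against 0 min. Relative to that median, miR-136 stood 0.56, 0.70 and 0.54 higher. Its rank from the top among the 166 was 12, 14 and 27 at these times.

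**Figure D3:**
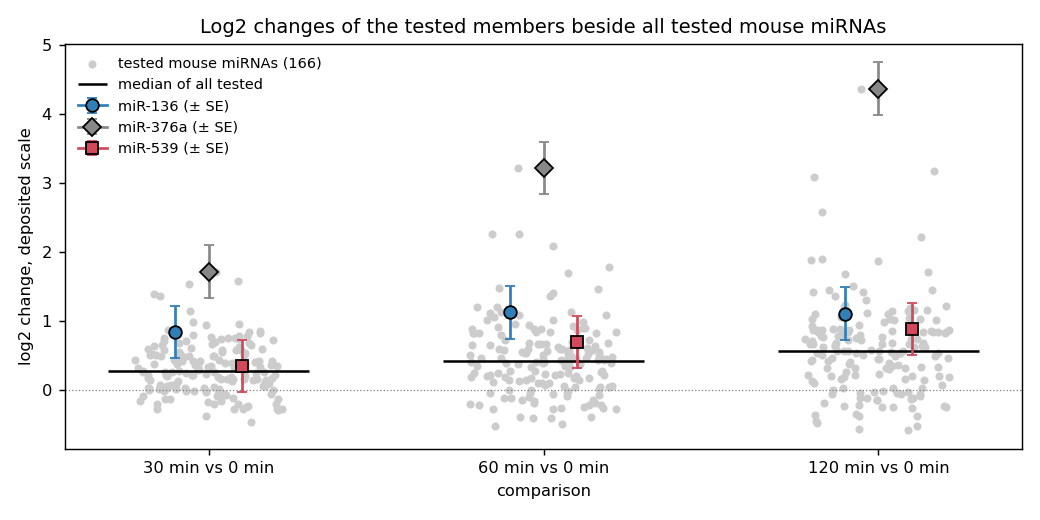
Log2 change against 0 min on the deposited scale (y axis) at 30, 60 and 120 min for the 166 tested mouse miRNAs (grey dots), with their median (black line) and, with SE bars of 0.38, miR-136, miR-539 and the neighbour miR-376a. miR-136 lies above the median at each time, at 0.84, 1.13 and 1.11, and miR-376a is far above it, at 1.72, 3.22 and 4.37.

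How samples were scaled to each other decided part of this result. For a second scale each sample was divided by the geometric mean of 100 mouse miRNAs, the same in all samples. They were those with the highest mean over the 12 samples, and the factors were centred on a geometric mean of 1. miR-136 then had a signal of 136.5 to 192 at 0 min and 177 to 254 at 30 min. At 60 min it was 222 to 257, and at 120 min 161 to 269. On that scale the 60 min samples were above all 0 min samples. The share of the 166 miRNAs whose groups did not overlap was taken on the deposited scale alone, where it was 18.1% at 60 min. On the scale of the 100 miRNAs the log2 change of miR-136 at 60 min was 0.66 ± 0.21 (SE, limma adjusted p = 0.0303, with 11.4% of the 166 miRNAs called higher and 19.9% lower). The 120 min samples overlapped the 0 min samples, and the log2 change of 0.48 ± 0.21 was not called (adjusted p = 0.0825, with 14.5% called higher and 27.1% lower). At 30 min the change of 0.50 was not called either (adjusted p = 0.115, with 0% called higher and 0.602% lower). Scaled instead to the ligation controls, RNAs added to follow the tag-ligation step, miR-136 had log2 changes of 0.03, 0.31 and 0.36 at 30, 60 and 120 min, none of them called (adjusted p = 0.911, 0.207 and 0.170). The ligation controls themselves differed with treatment: per 1000 counts of the positive controls they gave 384 to 529 in the 9 stimulated samples, against 141.8, 278 and 293.1 at 0 min. Of the 166 miRNAs, 1.2%, 4.22% and 9.04% were called higher at the 3 times on that scale, and 47.6%, 37.3% and 28.9% lower. The panel median on that scale was -0.52, -0.38 and -0.18. The direction of miR-136 at 60 min and 120 min was upward on all 3 scales. Its position relative to the panel median could hardly differ between scales, because scaling multiplies all miRNAs of a sample by 1 factor.

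**Figure D4:**
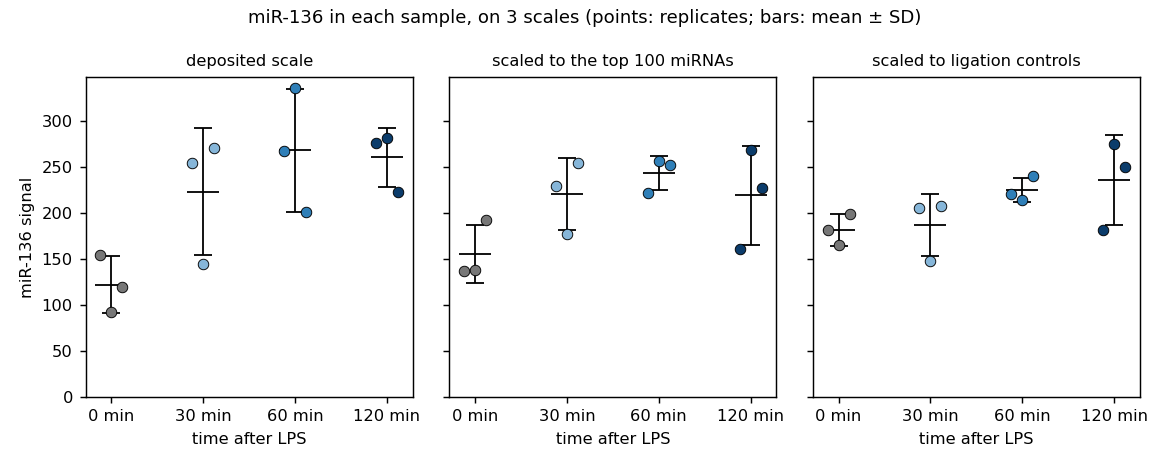
miR-136 signal in each of the 12 samples by time after LPS, on the deposited scale, scaled to the top 100 miRNAs and scaled to the ligation controls; points are replicates and bars the mean ± SD of 3. The 60 min mean exceeds the 0 min mean in each panel, 268 against 122, 243 against 155.3 and 225 against 181, and the gap narrows from the left panel to the right.

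Single libraries also decided the call. Without 0 min replicate 1, the shallowest library, the log2 change of miR-136 was 1.31 at 60 min and 1.29 at 120 min, and both were called. Leaving out that library raised the calls over the whole panel to 22.3% of the 166 at 60 min and 46.4% at 120 min, against 10.8% and 21.7% with it. The call at 60 min was lost without replicate 2 of 0 min (log2 change 0.95, limma adjusted p = 0.211) or without replicate 3 of 0 min (1.13, adjusted p = 0.0994). Leaving out replicate 1 of 60 min (1.11, adjusted p = 0.147) or replicate 2 of 60 min (0.95, adjusted p = 0.303) also ended it. With the log2 change unmoved, the adjusted p became 0.0510 without replicate 1 of 30 min and 0.0509 without replicate 3 of 30 min, libraries that enter through the shared estimate of spread. The call at 120 min was lost without replicate 2 of 0 min (0.93, adjusted p = 0.143) or replicate 3 of 0 min (1.11, adjusted p = 0.0717). It was lost as well without replicate 1 of 120 min (1.06, adjusted p = 0.0631) or replicate 2 of 120 min (1.05, adjusted p = 0.0715). The log2 change stayed between 0.95 and 1.32 at 60 min and between 0.93 and 1.29 at 120 min whichever library was left out.

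miR-539, from the Mirg side, was close to background. It was at the floor of 20 in 0 min replicates 1 and 2 and at 23.8 in replicate 3, and it had a signal of 23.7, 25.8 and 33.2 at 30 min. At 60 min its signal was 37.6, 46.0 and 24.8, and at 120 min 42.7, 43.8 and 34.4. The counts behind these values never exceeded 55, and only 4 samples were above their highest negative control: 60 min replicate 2 and the 3 samples at 120 min. At 30, 60 and 120 min the log2 changes against 0 min were 0.35, 0.70 and 0.89, none of them called (limma adjusted p = 0.752, 0.255 and 0.0775). Without 0 min replicate 1 the log2 change at 120 min was 0.85 and passed (adjusted p = 0.0485), where 46.4% of the 166 passed. Since miR-539 entered the fit through its values at 60 and 120 min, its p-values at these times are no support for a rise. With every value raised to the highest signal that a floored entry can stand for, 45.3, the 3 changes became 0.00, 0.01 and 0.00, since nearly all values of miR-539 lie below the signal that the floored entry of 0 min replicate 1 can stand for. On the ligation control scale the changes were -0.44, -0.10 and 0.16.

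Among the members that were not tested, miR-495 and miR-329 had their highest values at 120 min. miR-495 was at 48.2 and 39.7 in 120 min replicates 1 and 3, from 44 and 53 counts, and at 21.9 in 60 min replicate 1. It was at the floor in the other 9 samples, 120 min replicate 2 among them. miR-329 was at 37.2 and 38.2 in the same 2 libraries at 120 min, from 34 and 51 counts, and at the floor in the other 10 samples. In both libraries both miRNAs exceeded the highest negative control, which reached 33 and 28 counts there. Both genes lie in the same run of Mirg-side miRNAs, and both were at the floor in the remaining library of that time point.

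miR-380-5p and miR-369-3p were at the floor in all 0 min samples and above it in all 30 min and 60 min samples. All their values lie below 45.3, the signal that a floored entry of 0 min replicate 1 can stand for. In 0 min replicates 2 and 3 a floored entry can stand for a signal of up to 20. Whether the groups separate therefore hangs on 0 min replicate 1, and the floor leaves that undecided. Of the 166 tested miRNAs, 15.7% at 30 min and 18.1% at 60 min had groups wholly above 0 min. miR-380-5p, known from neuroblastoma cells as a repressor of p53, had a signal of 29.7, 25.8 and 39.2 at 30 min and 28.2, 36.8 and 27.4 at 60 min. At 120 min it was at 29.6 and 23.9 in replicates 1 and 2. Of these 8 values 1 was above the highest negative control of its sample. The signal of miR-369-3p was 35.6, 21.9 and 29.7 at 30 min and 32.4, 42.1 and 21.2 at 60 min. At 120 min it was above the floor in replicate 1 alone, at 29.6. Of these 7 values 2 were above the highest negative control, 1 at 30 min and 1 at 60 min.

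A few members had their highest signal in an unstimulated library. miR-654-3p was at 56.6 in 0 min replicate 1 and at 20.9 to 33.2 in 7 stimulated samples. miR-541 was at 49.8 in 0 min replicate 1, and at 36.8, 26.1 and 29.6 in replicate 1 of 30, 60 and 120 min. miR-433, transcribed antisense to Rtl1, was at 47.6 and 27.2 in 0 min replicates 1 and 3, and at 38.0, 21.9 and 29.6 in replicate 1 of the 3 later times. The values of 0 min replicate 1 come from 25, 22 and 21 counts multiplied by that library's large step, all below its highest negative control of 32 counts. In later samples miR-654-3p exceeded the highest negative control 3 times and miR-541 once, and miR-433 exceeded it in 0 min replicate 3 and 30 min replicate 1.

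The remaining members were above the floor in 1 to 4 samples each, all of them after LPS. Their values, at most 33.2, lie below the 45.3 that a floored entry of 0 min replicate 1 can stand for. The 9 stimulated samples also had more of all 566 mouse probes above the floor, 191 to 267 against 148 to 170 at 0 min. miR-323-3p was at 24.9 and 30.9 at 30 min and at 20.9 and 30.2 at 60 min. miR-431 was at 33.2, 21.2 and 24.1 in 1 sample each of 30, 60 and 120 min, and miR-337-5p at 24.9 and 21.9 in 1 sample each of 30 and 60 min. miR-412 was at 28.2 and 26.3 in 2 samples at 60 min, and miR-377 at 26.3 and 24.7 in 1 sample each of 60 and 120 min. miR-369-5p (23.7 at 30 min) and miR-434-3p (26.3 at 60 min) were each seen once. The 5 probes miR-380-3p, miR-485, miR-493, miR-665 and miR-666-3p were above the floor only in 120 min replicate 1, the deepest library, at 21.9 to 29.6. Of all these values 2 exceeded the highest negative control, miR-431 at 30 min and miR-377 at 120 min.

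**Figure D5:**
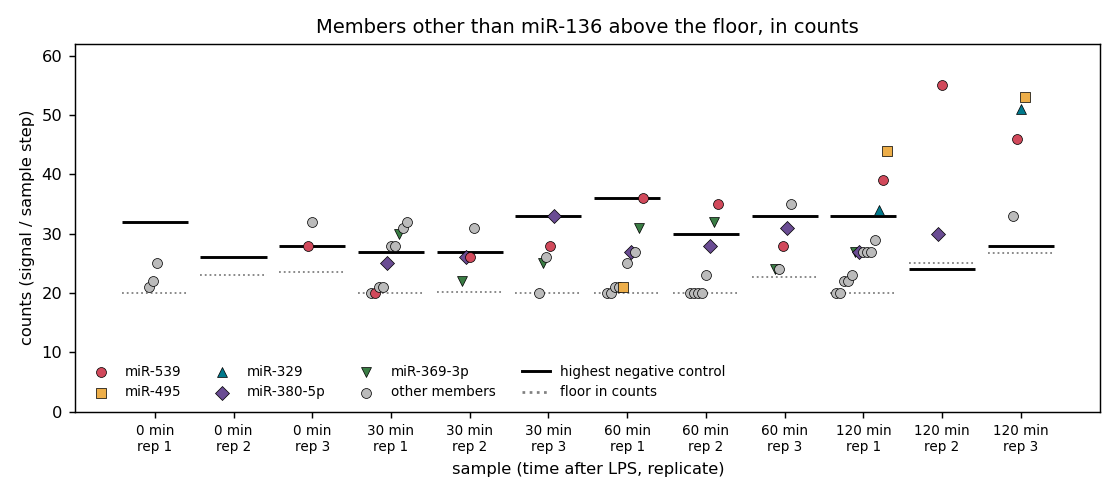
Counts (signal divided by the sample's step) of the members other than miR-136 that were above the floor, in each of the 12 samples; the solid line is the sample's highest negative control and the dotted line the floor in counts. Most points lie at or below the solid line. miR-539, miR-495 and miR-329 at 120 min reach 34 to 55 counts, above the lines at 24 to 33.

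A fit on all 566 mouse probes, with no filter on low values, called 0 of the 52 members in each of the 5 comparisons. Of the 566 probes it called 24 higher at 120 min against 0 min, 6 higher and 1 lower at 120 min against 60 min, and 0 in the other 3 comparisons. Its lowest adjusted p for a member against 0 min was 0.862, 0.201 and 0.0759 at 30, 60 and 120 min, and miR-136 had 0.201 at 60 min and 0.0964 at 120 min. With every value raised to a common floor of 45.3, the call of miR-136 was also lost at 60 min (adjusted p = 0.102) and held at 120 min (0.0403). Its log2 changes of 1.13 and 1.11 were the same in both of these fits. In the fit with no filter an unadjusted p under 0.05 was reached by 2 members at 30 min (miR-136 and miR-380-5p), by 4 at 60 min (miR-136, miR-380-5p, miR-412 and miR-539) and by 4 at 120 min (miR-136, miR-329, miR-495 and miR-539). These are 3.85%, 7.69% and 7.69% of the members, beside 4.42%, 7.95% and 14.0% of the 566 probes. All of these were higher after LPS. The 31 members at the floor throughout enter that fit with no difference at all, so they limit what it can show.

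The neighbour miR-376a, 128.5 kb from miR-136 and 4.35 kb from miR-539, was above the floor in every sample. Its signal was 34 to 74 at 0 min, 115 to 274 at 30 min, 324 to 797 at 60 min and 779 to 1269 at 120 min, and its log2 change ranked 1 of the 166 at each time. miR-376b, encoded 315 bases from miR-376a, and miR-376c were at the floor in all 12 samples. Of 12 further probes for miRNAs of the region outside the name rule, 10 were at the floor in all samples. miR-770-3p, the 1 of them that passed the limit, was at 56.6, 28.6 and 27.2 at 0 min and at 20 to 40.8 after LPS. miR-432 was above the floor in 4 samples, at no more than 32.9.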

How the data were processed

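The series' table gives 1 value per probe in 12 samples. The authors' deposited values have the unit signal. Which normalization produced them is not stated in the labels. From the values, signal is a count multiplied by 1 step per sample, with the geometric mean of the housekeeping mRNAs equal in all samples (9390) and a floor of 20. Values above the floor up to 2000 were whole multiples of the step within 0.1 of a step in all samples. Positive and negative control rows hold counts without that step.

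Groups follow the labels. limma 3.58.1 (R 4.3.3) was fitted to log2(signal + 1) of all 12 samples with 1 mean per time point, for 166 mouse miRNAs with a mean above 30.5, with Benjamini-Hochberg adjustment. It was also run on simulated data with independent noise in each entry and no shift of whole libraries. That run therefore does not bear on how far the calls depend on single libraries. Members passing this limit are named with every sample's signal, other members with their values above the floor. Alternatives were other scalings, floors, filters, pseudocounts, variance models and samples left out. Sequences are from RefSeq (GRCm38.p6). The members and lists were chosen with earlier results of these data known.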

Additional observations from a re-analysis of the deposited data

How the results depend on the processing

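On the deposited scale 1 member (miR-136) was called at 60 min and 1 at 120 min against 0 min, and 0 at 30 min. At 60 min the count of members called was 0 with ligation control scaling, a common floor of 45.3 or no filter, and 2 (miR-136 and miR-539) with sample weights. At 120 min it was 0 with top-100 scaling, with ligation control scaling, with both a common floor and top-100 scaling and with no filter, and 2 with sample weights or with a filter that keeps miRNAs above the floor in 3 samples (10 members, with 19.7% of its 238 miRNAs called higher). At 30 min it was 1 with sample weights. Leaving out 1 library, with or without top-100 scaling, gave 0 to 1 members at 60 min and 0 to 2 at 120 min. The pseudocount of 10 left these counts at 0, 1 and 1, with 6, 17 and 33 of the 166 miRNAs called higher. The trended, robust variance did so as well, with 5, 17 and 36 called higher. Top-100 scaling combined with another choice, apart from leaving out 0 min replicate 1 or setting a common floor first, was added once the data had been seen. Top-100 scaling with a replicate block, or with a floor set after it, gave 1 member at 60 min and 0 at 120 min. Without these additions it called 11.4% of the 166 higher at 60 min and 14.5% at 120 min. A limit from negative controls on the signal scale, also added then, left the counts at 0, 1 and 1. No share over all miRNAs is set beside the counts of these added fits, nor of most fits with 1 library left out. Those counts are therefore not read as a result about the members. Over all miRNAs, 5, 18 and 36 were called higher at 30, 60 and 120 min on the deposited scale, against 0, 2 and 15 with the common floor, 65.1%, 77.7% and 56.6% of the 166 with sample weights, and 0, 0 and 24 of 566 with no filter. Without 0 min replicate 1 they were 5, 37 and 77. For 60 min against 30 min and 120 min against 60 min the count of members was 0 under every alternative run.

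The values do not decide whether replicate numbers pair the samples. Over 18 same-numbered pairs the correlation of deviations ranged from -0.38 to 0.35 (median 0.05), with 5 above 0.1. Over 36 differently numbered pairs it ranged from -0.39 to 0.37 (median -0.01), with 12 above 0.1. With the replicate block, 0, 1 and 2 members were called at 30, 60 and 120 min, and 7, 39 and 61 of the 166 miRNAs against 5, 18 and 36 without it. The planned count test was not run, because counts below the floor could not be recovered.

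Some signs turned, but not those of the changes called on the deposited scale, miR-136 at 60 and 120 min against 0 min. At those times miR-539, which was called with sample weights, did turn in sign under other choices. For miR-136 at 120 min against 60 min the value was 0.047 with ligation control scaling, -0.21 to 0.16 with 1 library left out and up to 0.023 with top-100 scaling and 1 library left out, and at 60 min against 30 min it was -0.0010 to 0.48 with 1 library left out. For miR-539 against 0 min, ligation control scaling gave -0.44 at 30 min and -0.099 at 60 min, and the common floor with top-100 scaling gave -0.34, -0.46 and -0.62 at 30, 60 and 120 min. Between neighbouring times that setting gave -0.12 for 60 min against 30 min and -0.17 for 120 min against 60 min. For 120 min against 60 min miR-539 was at -0.0074 with the common floor, -0.018 with sample weights and -0.051 to 0.38 with 1 library left out. With top-100 scaling, leaving out a 120 min library moved it to -0.0038 (replicate 3) or -0.13 (replicate 2). With top-100 scaling and without 0 min replicate 1, its changes against 0 min were -0.28, -0.056 and -0.024 at 30, 60 and 120 min, and leaving out a 30 min library moved the 30 min change to -0.072 (replicate 2) or -0.061 (replicate 3). The cause was not tested. Apart from miR-136 no member exceeded 55 counts in any sample, and at such counts low expression and limited depth cannot be told apart.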
